A study of Mus musculus with 16 samples.

Results

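Fatty acid desaturases and elongases are the enzymes that put double bonds into fatty acids and lengthen their chains. The 9 genes described here, Scd1, Scd2, Fads1, Fads2, Fads3, Elovl1, Elovl5, Elovl6 and Elovl7, were taken by name from the 25791 gene symbols of an expression table. The table covers glomeruli, the filtering units of the kidney, which were collected magnetically after iron perfusion. It holds 7 libraries from RAAS-blocked mice and 9 libraries from untreated mice. RAAS-blocked mice drank lisinopril (20 mg/day), an inhibitor of angiotensin-converting enzyme, together with losartan (30 mg/day), which blocks the type 1 receptor for angiotensin II. Dosing began at 10 to 12 weeks of age and ran to 26 weeks, and together the drugs block the renin-angiotensin-aldosterone system (RAAS). Untreated mice received neither drug. Every mouse in both groups, controls included, had the genotype eNOS-/-//db/db on a standard diet. Such mice lack endothelial nitric oxide synthase in all cells and carry a leptin receptor mutation that causes obesity and diabetes, so nothing here compares them with mice without diabetes. The question was whether RAAS blockade goes with a different expression of these genes, against the spread between untreated mice.

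The stearoyl-CoA desaturases Scd1 and Scd2 introduce the double bond that turns saturated stearate and palmitate into the monounsaturated oleate and palmitoleate, the preferred building blocks of triacylglycerol. Fads2 and Fads1 act in turn on the essential fatty acids linoleate and alpha-linolenate, with elongation by Elovl5 between them, and yield arachidonate and eicosapentaenoate. Elovl6 lengthens palmitate to stearate, the substrate of the stearoyl-CoA desaturases, while Elovl1 and Elovl7 make longer saturated chains used in sphingolipids and other lipids. In liver several genes of this set are driven by the transcription factor SREBP-1c. In the kidney, tubule cells and glomerular cells both handle fatty acids, and bulk RNA from a glomerular preparation holds both.

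The libraries were first read as a whole. Nos3, the gene targeted in eNOS-/- mice, had a level of 24.0 ± 6.54 FPKM in RAAS-blocked (SD, n = 7) and 25.0 ± 10.6 FPKM in untreated libraries (SD, n = 9), and a value over the whole gene does not show whether the targeted allele works. FPKM scales fragments to transcript length and library size. Markers of podocytes, the epithelial cells of the glomerulus, were abundant, with Synpo (synaptopodin) at 333 to 623 FPKM over all 16 libraries, although another podocyte gene, Podxl, was listed at 0 in each. Tubule genes were present in every library and varied widely, with Slc34a1 of the proximal tubule at 2.59 to 241 FPKM and Aqp2 of the collecting duct at 17.2 to 545 FPKM. Of the adipocyte markers, Adipoq had a median of 0.0377 FPKM and a maximum of 4.61 FPKM, Lep a maximum of 0.261 FPKM and Cfd a maximum of 12.8 FPKM. Fabp4, which endothelium also expresses, ran from 216 to 613 FPKM. The mean log2(FPKM + 1) of the 8 adipocyte markers was 2.31 in RAAS_blocked replicate 0. It was 1.22 to 1.36 in the other RAAS-blocked libraries and 1.07 to 1.28 in untreated ones. RAAS_blocked replicate 4 stood apart, with 16919 symbols above 0, against 17993 to 18613 in the others, and Ren1 (renin) at 33.5 FPKM, against 443 to 1584 FPKM in the other RAAS-blocked libraries and 6.92 to 263 FPKM in untreated ones. Rn18s (18S ribosomal RNA) was listed at 2214 to 9925 FPKM in all 7 RAAS-blocked libraries and at 0 in all 9 untreated ones, and the description numbers of the samples formed 2 unbroken runs, 1 per group. Treatment and whatever was done run by run cannot be told apart.

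Promoter sequences are shown for Elovl7, Elovl6 and Fads2, whose levels moved together across libraries, and for Elovl5, which moved the opposite way. They are the 250 bases before the annotated start in RefSeq (build GRCm38.p6), which matched 6 of the 9 genes, and capitals mark a CCAAT box (CCAAT), a GC box (GGGCGG) or an E-box (CACGTG) on either strand. None of these motifs overlapped in the sequences shown.
Elovl7: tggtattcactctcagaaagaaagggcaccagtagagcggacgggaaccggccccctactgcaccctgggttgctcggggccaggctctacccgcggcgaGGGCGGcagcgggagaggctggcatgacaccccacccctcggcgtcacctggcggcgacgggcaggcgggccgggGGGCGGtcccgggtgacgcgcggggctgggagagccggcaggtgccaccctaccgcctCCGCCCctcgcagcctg
Elovl6: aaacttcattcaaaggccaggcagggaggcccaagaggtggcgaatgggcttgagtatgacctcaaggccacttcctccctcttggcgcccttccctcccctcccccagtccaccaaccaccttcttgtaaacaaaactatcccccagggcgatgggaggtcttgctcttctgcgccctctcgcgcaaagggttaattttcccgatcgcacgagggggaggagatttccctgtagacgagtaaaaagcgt
Fads2: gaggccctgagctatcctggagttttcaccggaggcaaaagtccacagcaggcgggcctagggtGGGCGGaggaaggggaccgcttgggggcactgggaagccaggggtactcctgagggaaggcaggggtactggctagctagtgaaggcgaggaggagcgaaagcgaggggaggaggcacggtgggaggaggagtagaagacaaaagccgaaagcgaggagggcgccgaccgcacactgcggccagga
Elovl5: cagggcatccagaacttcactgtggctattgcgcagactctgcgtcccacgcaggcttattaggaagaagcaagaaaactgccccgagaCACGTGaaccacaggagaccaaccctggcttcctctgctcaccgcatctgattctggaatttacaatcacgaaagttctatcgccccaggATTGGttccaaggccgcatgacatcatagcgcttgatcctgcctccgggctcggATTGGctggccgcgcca
The Elovl7 window lies at chr13:108214154-108214403 on the plus strand and holds 3 GC boxes, 150, 75 and 17 bases before the start. The Elovl6 window (chr3:129532136-129532385, plus strand) holds none of the motifs searched. The Fads2 window (chr19:10101504-10101753, minus strand) holds 1 GC box, 186 bases before the start. The Elovl5 window (chr9:77917115-77917364, plus strand) holds 1 E-box at 161 bases and 2 CCAAT boxes at 71 and 17 bases. Over the 32851 promoter windows of the same length in the RefSeq table, 33.8% held a CCAAT box, 32.7% a GC box and 6.02% an E-box. These matches describe letters, not sites of binding.

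Per length of transcript, the 9 genes formed a high and a low tier that held in every library. By their mean over all 16 libraries the order was Scd2 (72.9 FPKM), Elovl5 (68.3 FPKM), Elovl1 (55.7 FPKM), Fads1 (39.1 FPKM) and Fads3 (29.4 FPKM), then Scd1 (9.54 FPKM), Elovl7 (6.76 FPKM), Fads2 (5.31 FPKM) and Elovl6 (2.88 FPKM). Fads3 exceeded Scd1 in 16 of 16 libraries, and Elovl1 exceeded Fads1 in 16 of 16. Neighbours within a tier were less clearly ordered, since Scd2 exceeded Elovl5 in 10 of 16 libraries, Scd1 exceeded Elovl7 in 10 and Elovl7 exceeded Fads2 in 10. Scd2, and not Scd1, was the main stearoyl-CoA desaturase transcript in these preparations, with a ratio of Scd2 to Scd1 between 5.45 and 15.9 in RAAS-blocked libraries, against 3.74 to 18.1 in untreated libraries.

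**Figure D1:**
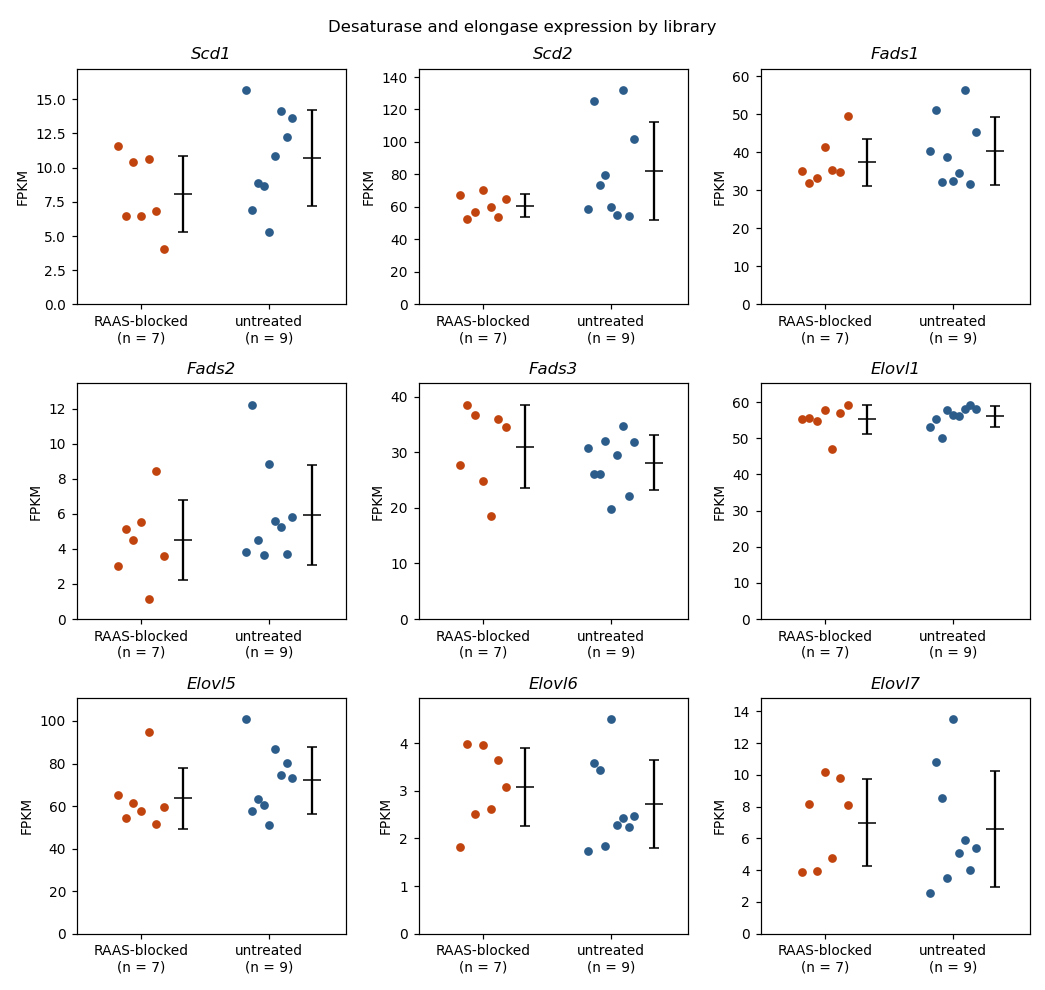
FPKM of each of the 9 genes in every library, with RAAS-blocked libraries (n = 7) left and untreated libraries (n = 9) right. Points are libraries, the horizontal tick and bar are the mean and SD, and each vertical axis starts at 0. The groups overlap for each gene, and the 3 untreated libraries above 100 FPKM for Scd2 have no counterpart among the RAAS-blocked ones.

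No gene of the set passed a test for a difference of level between RAAS-blocked and untreated libraries. This does not show equal levels, since confidence intervals of the log2 difference were wide for several genes. They ran from -0.84 to 0.10 for Scd1, -0.75 to 0.04 for Scd2, -0.95 to 0.21 for Fads2 and -0.47 to 0.75 for Elovl7. All 9 genes passed the filter of at least 1 FPKM in at least 7 libraries. Of these, 0 of 9 passed a limma adjusted p of 0.05, with 0 of 9 at an unadjusted p under 0.05. In the same fit 0.0151% of 13286 genes passed (2 genes) and 6.13% had an unadjusted p under 0.05. An exact rank test on the same genes called 0. Its smallest possible p at these group sizes is too large for a few separated genes to pass after adjustment, so that 0 is uninformative. Groups that did not overlap occurred for 0 of the 9, against 0.0602% of all genes. Mean log2 levels were lower in RAAS-blocked libraries for 6 of the 9, against 55.3% of all genes tested, and for 5 of the 9 with upper-quartile scaling or quantile normalization, where Elovl1 turned. The median difference of log2(FPKM + 1) was -0.09 over the 9 genes and -0.02 over all genes tested. Differences are RAAS-blocked minus untreated ± SE, and on this scale they understate the change of low genes such as Elovl6.

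Scd1 lay between 4.09 and 11.5 FPKM in RAAS-blocked libraries (median 6.84), against 5.31 to 15.7 FPKM in untreated libraries (median 10.8). The groups overlapped, although 4 untreated libraries exceeded the highest RAAS-blocked one and 6 of 7 RAAS-blocked libraries were under the untreated median. Its log2 difference was -0.37 ± 0.22, with a 95% interval from -0.84 to 0.10 (limma adjusted p = 0.856). RAAS_blocked replicate 6 had the lowest Scd1 of all, and without it the difference was -0.24. It was -0.47 without untreated replicate 4, -0.56 without untreated replicates 1 and 4, and -0.59 as a difference of medians. The limma adjusted p was 0.846 and 0.727 in the first pair of these fits. The adjusted p of the exact rank test, which could hardly make a call at these group sizes, was 0.844. RAAS_blocked replicate 0, the library with the highest mean of adipocyte markers (2.31), had the highest Scd1 of its group (11.5 FPKM). Without that library the log2 difference was -0.46. Whether adipocyte RNA has a part in its Scd1 level was not tested, and no slope on an adipocyte level was fitted.

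Scd2 lay between 52.5 and 70.6 FPKM in RAAS-blocked libraries (median 59.8), against 54.2 to 132 FPKM in untreated libraries (median 73.5). All 7 RAAS-blocked libraries were under the untreated median, yet 4 untreated libraries lay among them, and the highest values were those of untreated replicates 6 (132 FPKM), 1 (125 FPKM) and 8 (102 FPKM). The log2 difference was -0.36 ± 0.19, interval -0.75 to 0.04 (limma adjusted p = 0.824), and it ranged from -0.42 to -0.26 when 1 library was left out. The ratio of means was 0.740, and the ratio of medians was 0.813.

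Fads1, which completes arachidonate, overlapped widely between the groups. It ran from 31.9 to 49.7 FPKM in RAAS-blocked libraries (median 35.2), against 31.6 to 56.4 FPKM in untreated libraries (median 38.8), with a log2 difference of -0.09 ± 0.13 (interval -0.37 to 0.18, limma adjusted p = 0.934). The difference was -0.03 without untreated replicate 6 and -0.16 without RAAS_blocked replicate 6. Its highest libraries were untreated replicates 6 (56.4 FPKM) and 1 (51.2 FPKM), RAAS_blocked replicate 6 (49.7 FPKM) and untreated replicate 8 (45.4 FPKM), and 3 of these 4 are the libraries with high Scd2.

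Fads2, which takes the entry step on linoleate, was low and had the widest range of the set, 10.5-fold over all 16 libraries. It lay between 1.16 and 8.44 FPKM in RAAS-blocked libraries (median 4.51), against 3.68 to 12.2 FPKM in untreated libraries (median 5.26). The lowest value belonged to RAAS_blocked replicate 4 and the highest to untreated replicate 1, and the groups overlapped between these. The log2 difference was -0.37 ± 0.28 (interval -0.95 to 0.21, limma adjusted p = 0.894). It was -0.17 without RAAS_blocked replicate 4, -0.52 without RAAS_blocked replicate 5 and -0.14 without untreated replicates 1 and 4. The ratio of Fads1 to Fads2 was 4.14 to 30.3 in RAAS-blocked libraries and 3.70 to 10.7 in untreated ones, with the value of 30.3 in RAAS_blocked replicate 4.

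Fads3, a relative of Fads1 and Fads2 that acts on sphingoid bases, had a higher median in RAAS-blocked libraries, without passing the test. It was at 18.5 to 38.6 FPKM in RAAS-blocked libraries (median 34.5), against 19.8 to 34.7 FPKM in untreated libraries (median 29.5). The log2 difference was 0.12 ± 0.15 (interval -0.20 to 0.44, limma adjusted p = 0.934). It was 0.23 without RAAS_blocked replicate 4, which had the lowest value, 0.06 without untreated replicate 4 and 0.04 without untreated replicates 1 and 4.

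Elovl1, which elongates saturated and monounsaturated chains to very long ones, was the steadiest of the 9. It lay between 47.1 and 59.3 FPKM in RAAS-blocked libraries (median 55.6), against 50.2 to 59.1 FPKM in untreated libraries (median 56.5). The log2 difference was -0.02 ± 0.05 (interval -0.14 to 0.09, limma adjusted p = 0.960), and its sign turned with upper-quartile scaling, quantile normalization, array weights and without RAAS_blocked replicate 4. Its SD among untreated libraries was at the 2.76th percentile of all genes tested, so few genes varied less from mouse to mouse. Elovl1 overlaps Cdc20 on the opposite strand, and whether strand was used in counting is not given in the sources used here, but Cdc20 was at 1.89 to 6.49 FPKM.

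Elovl5, the elongase of polyunsaturated chains, was at 51.5 to 94.6 FPKM in RAAS-blocked libraries (median 59.7), against 51.3 to 101 FPKM in untreated libraries (median 73.3). In 6 of 7 RAAS-blocked libraries it was under the untreated median, and the exception, RAAS_blocked replicate 4, had the second highest value of all 16. The log2 difference was -0.17 ± 0.14 (interval -0.48 to 0.13, limma adjusted p = 0.902). It was -0.27 without RAAS_blocked replicate 4, -0.11 without untreated replicate 0 and -0.28 without untreated replicates 1 and 4.

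Elovl6, which extends palmitate, was the lowest of the set, at 1.82 to 3.98 FPKM in RAAS-blocked libraries (median 3.07), against 1.73 to 4.50 FPKM in untreated libraries (median 2.43). Elovl7 was at 3.92 to 10.2 FPKM in RAAS-blocked libraries (median 8.14), against 2.54 to 13.5 FPKM in untreated libraries (median 5.38). For both, the untreated range enclosed the RAAS-blocked range. Their log2 differences were 0.14 ± 0.16 for Elovl6 (interval -0.19 to 0.48, limma adjusted p = 0.930) and 0.14 ± 0.29 for Elovl7 (interval -0.47 to 0.75, limma adjusted p = 0.956). When 1 library was left out they ranged from 0.09 (without RAAS_blocked replicate 1) to 0.23 (without RAAS_blocked replicate 0) for Elovl6. For Elovl7 they ranged from 0.02 (without untreated replicate 0) to 0.27 (without untreated replicate 4). Without untreated replicates 1 and 4 the differences were 0.28 for Elovl6 and 0.40 for Elovl7 (limma adjusted p = 0.856 and 0.888). The ratio of Elovl7 to Elovl6 stayed between 1.57 and 2.69 in RAAS-blocked and between 1.47 and 3.01 in untreated libraries.

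**Figure D2:**
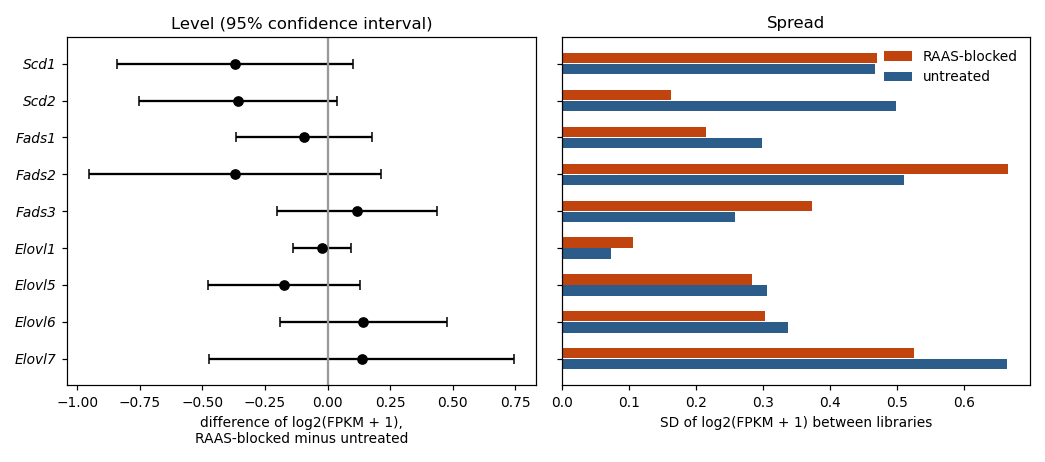
Left, difference of log2(FPKM + 1) of each gene, RAAS-blocked minus untreated, with its 95% confidence interval over 16 libraries; right, SD of log2(FPKM + 1) between libraries, with the RAAS-blocked bar (n = 7) above the untreated bar (n = 9). All 9 intervals cross 0, and Scd2 has an SD of 0.16 in RAAS-blocked and 0.50 in untreated libraries.

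The spread between mice differed most for Scd2. The SD of its log2 level was 0.16 in RAAS-blocked and 0.50 in untreated libraries, at percentile 25.5 of all genes tested in RAAS-blocked and 85.9 in untreated libraries, and the coefficient of variation was 11.5% in RAAS-blocked and 36.9% in untreated libraries. Compared as absolute deviations from the group median, the difference was -0.28 ± 0.14 on the log2 scale (limma adjusted p = 0.999). In that fit 0 of the 9 genes passed, against 0.00753% of all genes tested. Of the 9 genes, only Scd2 had an unadjusted limma p under 0.05 (0.049), against 2.43% of all genes. The deviations were smaller in RAAS-blocked libraries for 6 of the 9 genes, 1 of which, Scd1, turned with upper-quartile scaling while Elovl1 turned the other way, and for 43.5% of all genes. For this comparison, values of 13286 genes were simulated as independent and normally distributed, with a 5-fold wider spread in untreated libraries for 200 of them. This gave 0 calls among the 200 and 172 with an unadjusted p under 0.05. Genes of real libraries vary together, so the simulation does not measure what the test could find here. The absence of a call does not show equal spreads. Scd1, by contrast, had coefficients of variation of 34.6% in RAAS-blocked and 32.8% in untreated libraries, and Fads2 of 50.6% in RAAS-blocked and 47.9% in untreated libraries.

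Across libraries the 9 genes did not vary as one block. With group means removed, the Pearson r of log2(FPKM + 1) over 16 libraries was above 0.7 or below -0.7 for 8 of the 36 pairs. All pairs come from the same 16 libraries, and the values are given as a description, with no test. Elovl6 and Elovl7 were the closest pair, with r of 0.95 and a Spearman rho of 0.97, and r was 0.91 within the RAAS-blocked and 0.98 within the untreated group. Fads2 went with them (r of 0.71 with Elovl7 and 0.67 with Elovl6), while Scd1 went against them (r of -0.79 with Elovl7 and -0.75 with Elovl6). Elovl5 went with Scd1 (r of 0.74) and against Elovl7 (-0.72) and Fads2 (-0.74).

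Scd2 and Fads1 formed a separate pair, with r of 0.82. Scd1 and Scd2 had r of 0.01, and Fads1 and Fads2 had r of 0.17. Fads3 and Elovl1 had no pooled r beyond 0.46 with any other gene of the set, but some values within a group were larger, and whether they differ between the groups was not tested. Elovl1 with Elovl5 had r of -0.89 within the RAAS-blocked and -0.003 within the untreated group, and Fads3 with Elovl5 had -0.83 within the RAAS-blocked and 0.45 within the untreated group. Fads2 had r of 0.78 with Elovl1 and 0.74 with Fads3 within the RAAS-blocked group, against -0.01 and -0.35 within the untreated group. RAAS_blocked replicate 4, which had the lowest Elovl1, Fads2 and Fads3 and the highest Elovl5 of its group, is 1 of the 7 libraries behind the RAAS-blocked values.

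**Figure D3:**
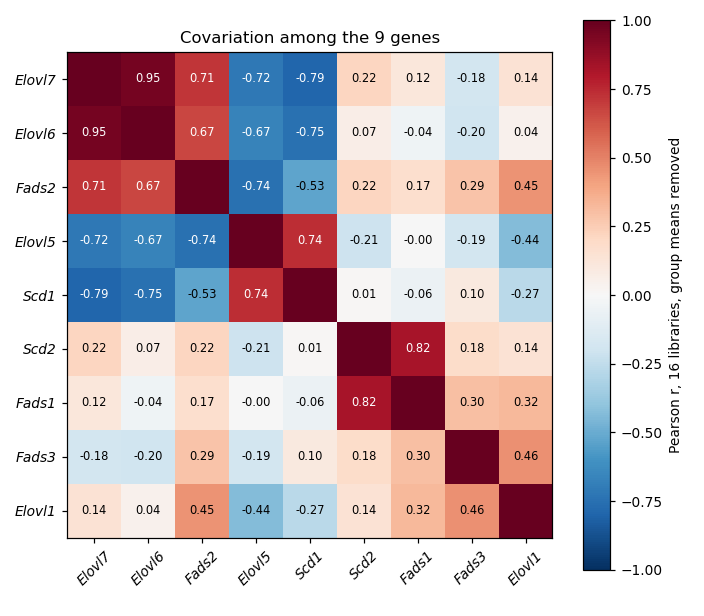
Pearson r of log2(FPKM + 1) between each pair of the 9 genes over 16 libraries, with group means removed; red is positive and blue negative. Elovl7, Elovl6 and Fads2 form a positive block that is negative against Elovl5 and Scd1, and Scd2 and Fads1 form a pair at 0.82.

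The genes were next compared with marker levels of the libraries. For each library a level was taken as the mean log2(FPKM + 1) of a fixed list of markers, and each gene's slope on that level, in log2 units per log2 unit, was tested with limma in a model that also held the group, adjusted over all genes tested. The convoluted proximal tubule level was planned and the other 7 levels were added after the data were seen. In bulk RNA, fewer cells of a type and less RNA per cell cannot be told apart.

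On the level of the distal tubule and collecting duct, 3 of the 9 genes rose, against 16.4% of all genes tested, and 2 fell, against 10.3%. Elovl7 had the steepest slope of the set (0.68 ± 0.07, limma adjusted p = 6.6e-06), with Fads2 at 0.54 ± 0.12 (adjusted p = 0.0036) and Elovl6 at 0.34 ± 0.05 (adjusted p = 0.00035). Elovl5 fell (-0.29 ± 0.06, limma adjusted p = 0.0014), as did Scd1 (-0.40 ± 0.10, adjusted p = 0.0092). All 5 slopes also passed in each of the 16 fits on 15 libraries. Untreated replicates 4 and 0, which had the highest (7.004) and the lowest (4.32) distal level, show the contrast. Replicate 4 had Elovl7 at 13.5 FPKM, Elovl6 at 4.50 FPKM and Scd1 at 5.31 FPKM, while replicate 0 had Elovl7 at 2.54 FPKM, Elovl6 at 1.73 FPKM and Scd1 at 15.7 FPKM. Elovl5 was at 51.3 FPKM in replicate 4 and at 101 FPKM in replicate 0.

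The level itself ran from 4.35 to 6.58 in RAAS-blocked and from 4.32 to 7.004 in untreated libraries. Over all 16 libraries, Elovl7 correlated with it at a Pearson r of 0.92 (permutation p = 1e-05, the smallest that 100000 resamples can give, two-sided) and a Spearman rho of 0.96 (permutation p = 1e-05). Leaving out the 2 libraries with the most extreme levels, r was 0.87, and it was 0.89 within the RAAS-blocked and 0.98 within the untreated group. For Elovl5 the Pearson r was -0.76 (permutation p = 0.00053) and rho -0.75 (permutation p = 0.00099), with r of -0.64 without the 2 farthest libraries, -0.82 within the RAAS-blocked and -0.82 within the untreated group. Of the 27 such correlations computed, over 9 genes and 3 levels, the adjusted values that apply are those of the slopes.

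Neighbouring nephron segments gave a similar but weaker picture, and the levels were not independent of each other. The distal level correlated with that of the loop of Henle at r of 0.84 and with that of the convoluted proximal tubule at 0.55. On the loop of Henle level Elovl7 (0.57), Fads2 (0.47) and Elovl6 (0.31) rose, 3 of 9 against 13.4% of all genes, and Elovl5 (-0.23) fell, 1 of 9 against 5.70%. Elovl5 there lost its call without untreated replicates 0, 1 or 4 or RAAS_blocked replicate 5, with limma adjusted p from 0.054 to 0.115, and with quantile normalization (adjusted p = 0.123). On the convoluted proximal tubule level 1 of 9, Fads2, rose (0.27 ± 0.08, limma adjusted p = 0.041), against 7.79% of all genes, and 0 fell, against 2.46%. The Fads2 slope missed the threshold in 9 of 16 fits with 1 library removed, those without untreated replicates 0, 1, 3, 4 or 7 or RAAS_blocked replicates 0, 1, 3 or 5, with values from 0.23 to 0.28. For Fads2 the Pearson r with that level was 0.64 (permutation p = 0.0065) and rho 0.61 (permutation p = 0.014), with r of 0.59 without the 2 farthest libraries, 0.62 within the RAAS-blocked and 0.73 within the untreated group.

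Scd2 and Fads1 instead rose with the podocyte level. Their slopes were 0.70 ± 0.16 for Scd2 (limma adjusted p = 0.013) and 0.51 ± 0.10 for Fads1 (adjusted p = 0.0046), 2 of 9 against 5.19% of all genes, and 0 of 9 fell, against 2.53%. Untreated replicates 6, 8 and 1 had the highest podocyte levels of their group (8.29, 7.73 and 7.71) and also its highest values of both genes. RAAS_blocked replicate 6 had a podocyte level of 8.23 with Fads1 at 49.7 FPKM, but with Scd2 at 65.2 FPKM, far under the untreated library of like level. Without untreated replicate 6 the Scd2 slope was 0.60 (limma adjusted p = 0.093), while that of Fads1 passed whichever library was removed.

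For Scd2 the Pearson r with the podocyte level was 0.73 (permutation p = 0.0027) and rho 0.82 (permutation p = 0.00019), with r of 0.86 without the 2 farthest libraries, 0.55 within the RAAS-blocked and 0.93 within the untreated group. For Fads1 the Pearson r was 0.82 (permutation p = 0.00012) and rho 0.64 (permutation p = 0.0096), with r of 0.64 without the 2 farthest libraries, 0.82 within the RAAS-blocked and 0.84 within the untreated group. Podocyte levels ran from 6.81 to 8.23 in RAAS-blocked and from 7.02 to 8.29 in untreated libraries. Whether the slope of Scd2 differs between the groups was not tested.

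**Figure D4:**
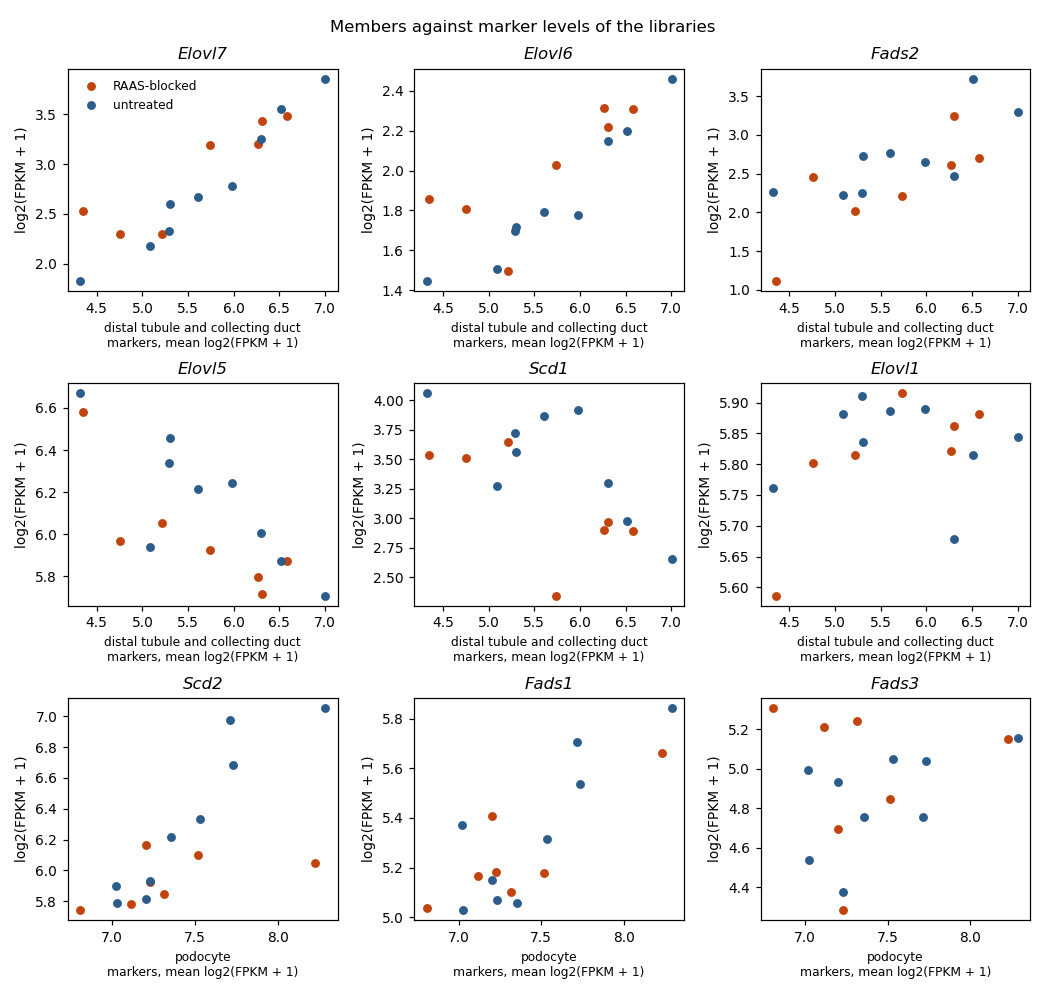
Level of each gene as log2(FPKM + 1) against the mean log2(FPKM + 1) of markers of the distal tubule and collecting duct (top 6 panels) or of podocytes (bottom 3 panels), with 1 point per library. Elovl7, Elovl6 and Fads2 rise and Elovl5 and Scd1 fall along the distal level, and Scd2 and Fads1 rise along the podocyte level. Elovl1 is drawn against the distal level only and Fads3 against the podocyte level only, and neither slope passed the adjusted threshold.

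The level of glomerular endothelial markers opposed both the distal level (r of -0.60) and the podocyte level (r of -0.60), and ran from 7.11 to 8.13 in RAAS-blocked and from 7.42 to 8.44 in untreated libraries. On it Elovl7 (-1.03), Scd2 (-0.77) and Fads1 (-0.53) fell, 3 of 9 against 10.3% of all genes, and Elovl5 (0.50) rose, 1 of 9 against 10.5%. The Elovl5 call was lost without untreated replicates 0, 1, 4, 5 or 7 or RAAS_blocked replicates 0, 3 or 4 (limma adjusted p from 0.052 to 0.123). That of Elovl7 was lost without untreated replicates 0, 1 or 7 or RAAS_blocked replicates 2, 3 or 4 (adjusted p from 0.057 to 0.109). With quantile normalization Elovl7 (-0.79, limma adjusted p = 0.071) and Scd2 (-0.50, adjusted p = 0.075) lost their calls. On the smooth muscle and pericyte, fibroblast and macrophage levels 0 of 9 genes passed in either direction. Over all genes 0.0828% rose and 0% fell on the smooth muscle level, 0% did either on the fibroblast level, and 3.51% rose and 0.181% fell on the macrophage level. Elovl1 and Fads3 passed on none of the 8 levels. Within groups, Elovl1 had r of 0.75 with the distal level in RAAS-blocked and -0.09 in untreated libraries. Fads3 had r of 0.01 with the podocyte level in RAAS-blocked and 0.55 in untreated libraries. Its r with the distal level was 0.43 in RAAS-blocked and -0.53 in untreated libraries.

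**Figure D5:**
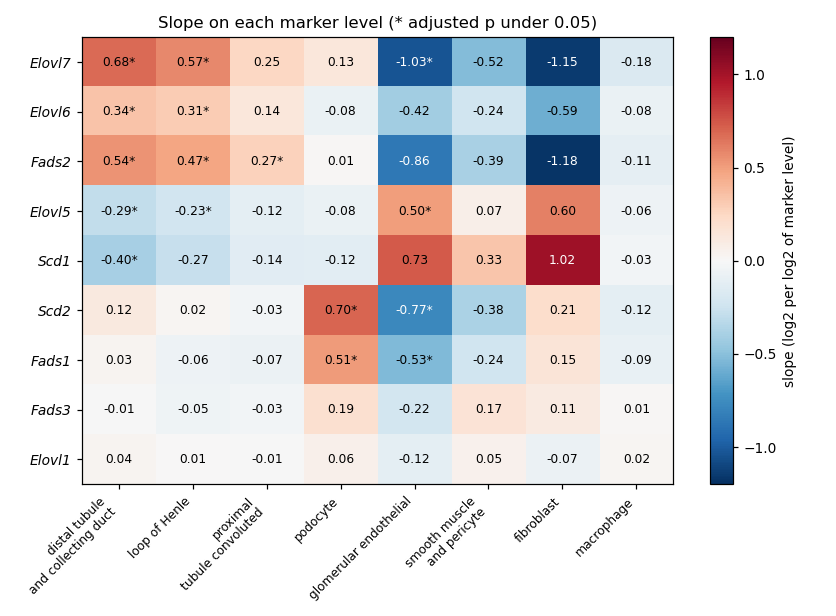
Slope of each gene on each of 8 marker levels, in log2 units of the gene per log2 unit of the level, from limma fits over 16 libraries that also hold the group; asterisks mark an adjusted p under 0.05 over 13286 genes. Fibroblast slopes reach -1.18 without a mark, and Elovl1 and Fads3 have no mark in any column.

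With a marker level in the model, none of the group differences passed. With the glomerular endothelial level as a covariate, a choice made after seeing the data, the Scd2 difference was -0.57 ± 0.14 (limma adjusted p = 0.102), that of Fads1 -0.24 ± 0.10 (adjusted p = 0.256) and that of Fads2 -0.61 ± 0.26 (adjusted p = 0.271). In the same fit the differences of Scd1 (-0.16), Elovl5 (-0.04), Fads3 (0.06) and Elovl6 (0.03) were nearer to 0 than without it, that of Elovl1 was -0.05, and that of Elovl7 turned to -0.15. With the podocyte level it was -0.28 ± 0.13 for Scd2 (limma adjusted p = 0.592). With the distal level it was -0.41 ± 0.16 for Scd1 (limma adjusted p = 0.466). What part the makeup of the preparations has in the group differences was not tested.

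Of 8 further desaturases and elongases, 3 were tested and all 3 had lower mean log2 levels, with 0 past the threshold. Over all genes tested, 55.3% had lower mean log2 levels, 6.13% had an unadjusted p under 0.05 and 0.0151% passed the threshold. Lower and higher means counted for the lists that follow are also those of log2 levels. Degs1, the dihydroceramide desaturase that completes ceramide, was at 101 ± 9.24 FPKM in RAAS-blocked and 112 ± 12.9 FPKM in untreated libraries (log2 difference -0.16 ± 0.08, limma adjusted p = 0.817). Fads6 was at 4.24 ± 3.33 FPKM in RAAS-blocked and 4.72 ± 3.05 FPKM in untreated libraries (log2 difference -0.22 ± 0.40). Elovl2, the elongase that follows Elovl5 on the way to docosahexaenoate, had a maximum of 1.97 FPKM, Scd4 of 0.414 FPKM, Elovl4 of 0.283 FPKM, Scd3 of 0.147 FPKM and Elovl3 of 0.0249 FPKM, and these were not tested.

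Elongases work with a reductase, a dehydratase and a second reductase. Of these 6 partners, 5 had lower means, against 55.3% of all genes tested, and 1 a higher mean, with 0 past the threshold. The lowest p values belonged to the dehydratase gene Ptplad2, now Hacd4, at 5.16 ± 0.850 FPKM in RAAS-blocked and 6.43 ± 1.61 FPKM in untreated libraries (log2 difference -0.25 ± 0.14, limma adjusted p = 0.830), and to the ketoacyl reductase gene Hsd17b12, at 42.3 ± 6.46 FPKM in RAAS-blocked and 44.3 ± 3.45 FPKM in untreated libraries (log2 difference -0.07 ± 0.08).

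Desaturases draw electrons from cytochrome b5 and its reductases. Of 5 tested genes of this supply, 3 had lower means, against 55.3% of all genes tested, 2 had higher means and 0 passed. An unadjusted p under 0.05 was found for 1, Cyb5r3, against 6.13% of all genes tested. Cyb5r3, the main NADH-cytochrome b5 reductase, was at 227 to 250 FPKM in RAAS-blocked libraries (median 239.6), against 225 to 299 FPKM in untreated libraries (median 283). Its log2 difference was -0.21 ± 0.07 (limma adjusted p = 0.639). Cyb5r2 had a maximum of 0.531 FPKM and was not tested.

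Enzymes of fatty acid synthesis supply the saturated substrates. Of 11 tested, 10 had lower means, against 55.3% of all genes tested, and 1 a higher mean, with 0 past the threshold. The median log2 difference was -0.07, against -0.02 over all genes. Thrsp, a lipogenic cofactor, was at 14.5 ± 6.12 FPKM in RAAS-blocked and 19.7 ± 5.77 FPKM in untreated libraries, and Acly, which makes cytosolic acetyl-CoA, at 44.8 ± 3.14 FPKM in RAAS-blocked and 47.6 ± 2.84 FPKM in untreated libraries. Their limma adjusted p values were 0.820 for Thrsp and 0.867 for Acly. Of 16 regulators of lipogenesis, 11 had lower means, against 55.3% of all genes tested, and 5 had higher means, with 0 past the threshold. Srebf1, which encodes SREBP-1c, was at 15.9 ± 2.25 FPKM in RAAS-blocked and 17.9 ± 2.41 FPKM in untreated libraries (log2 difference -0.16 ± 0.10). Nr1h3, the gene of the liver X receptor alpha, was at 6.64 ± 2.23 FPKM in RAAS-blocked and 5.36 ± 5.79 FPKM in untreated libraries (log2 difference 0.49 ± 0.33).

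Of 11 genes that activate the products or place them in glycerolipids and sterol esters, 6 had higher means, with 0 past the threshold. Lower means were found for 5, against 55.3% of all genes tested. Only Gpam, which starts glycerolipid synthesis, had an unadjusted p under 0.05, against 6.13% of all genes tested. Gpam was at 7.78 ± 0.999 FPKM in RAAS-blocked and 10.5 ± 3.14 FPKM in untreated libraries (log2 difference -0.36 ± 0.15, limma adjusted p = 0.755).

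For each of the 9 genes, the tested gene most like it was found by Pearson r of group-centred log2(FPKM + 1) over 16 libraries. Elovl7 was closest to Wwc1, Slc25a13 and Cdh1 (r of 0.98, 0.98 and 0.97), the last encoding E-cadherin of epithelial junctions, and Elovl6 to Ptprf, Tom1l1 and Exph5 (0.97, 0.96 and 0.96). Fads2 was closest to Phc1 (0.92), Bckdha (0.91) and Ell3 (0.91). Scd2 was closest to Sema6c (0.94), Arvcf (0.88) and Gstm4 (0.88), and Fads1 to Necab3 (0.95), Plxdc2 (0.93) and Nbl1 (0.93). Scd1 was closest to Slc36a4 (0.88), Tgfb2 (0.87) and Rgs4 (0.85), and Elovl5 to Prpf18 (0.93), Dhx36 (0.91) and Ikzf5 (0.91). Fads3 was closest to Plekhg2 (0.90), Hectd3 (0.87) and Syde1 (0.86), and Elovl1 to Rps6kb2 (0.90), Csnk2b (0.89) and Cope (0.88). These are the highest of 13286 genes by choice, so the values are a description only.

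Close copies could in part share reads. The longest transcript of Scd1 shares an identical run of 185 bases with Scd3, which stayed at or under 0.147 FPKM, and that of Scd2 shares 147 bases with Scd1. Elovl6 shares 139 bases with Gm11295, and Elovl7 shares 50 bases with the opposite strand of Ppp1r9a. For Fads1, Fads2, Fads3 and Elovl5 the search found no such run, and how reads with several matches were counted is not given in the sources used here.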

How the data were processed

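Total glomerular RNA was sequenced from TruSeq mRNA libraries, per the labels' protocols, in 7 RAAS_blocked and 9 untreated samples grouped by the agent label. The authors deposited 1 FPKM value per gene symbol and library. Tools named in the submitters' processing notes, without roles, are Cuffdiff 2.2.1, Cufflinks, TopHat2 2.0.8, CASAVA 1.8.2 and FastQC. Genome build, annotation, strand and multi-read handling were not given in the sources used here. The table has no counts, so absolute depth is unknown and no counting interval can be given. Relative depth, estimated from the steps between low FPKM values, was 1.04 to 1.70 times that of untreated replicate 0. In RAAS_blocked replicate 4, estimated at 1.04, only 26.3% of these values lay on a step, against 40.3% to 50.0% in the others, so its estimate is the least certain. FPKM shares a total, so an abundant RNA lowers the rest. Of 25791 symbols, 4177 were listed at 0 in every library. Treatment is described by mouse, but no label ties each sample to its own mouse, so p-values reflect how far these libraries scatter, which is taken as the spread between mice.

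The scale was log2(FPKM + 1) and the tool limma 3.58.1 in R 4.3.3 (moderated variance with trend and robust settings, group as the only term) over 13286 genes reaching 1 FPKM in 7 libraries or more, with Benjamini-Hochberg adjustment at 0.05. Spread was tested the same way on absolute deviations from group medians. Fits were tested on simulated data. The named genes are the 9 members, the 3 named genes most correlated with each (predicted symbols and small RNAs left out), and of each pathway list every gene with an unadjusted p under 0.05, otherwise the 2 lowest. Other genes are named to describe libraries. The members and lists were chosen with earlier results of these data known. Alternatives covered pseudocount, filter, scaling, variance model, library weights, replicate block, a rank test, marker covariates and leaving out libraries.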

Additional observations from a re-analysis of the deposited data

Results flagged for a closer look

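Within the 18 combinations of gene and group, chance alone puts about 1 in 20 past the criterion for a single library far from the rest of its group, and 2 passed. Elovl1 in RAAS_blocked replicate 4 was at 47.1 FPKM, under the other RAAS-blocked libraries, which lay between 54.8 and 59.3 FPKM. Elovl5 in RAAS_blocked replicate 4 was at 94.6 FPKM, above the other RAAS-blocked libraries, which lay between 51.5 and 65.4 FPKM. The same library had the lowest Fads2 (1.16 FPKM) and Fads3 (18.5 FPKM) of all 16 and the fewest symbols above 0 (16919).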

How the results depend on the processing

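No gene of the set passed the test of level under any alternative run, and log2 differences kept their sign except where given here. Elovl1 turned to 0.00418 with upper-quartile scaling, 0.014 with quantile normalization and 0.00792 with array weights, and ranged from -0.041 to 0.016 when 1 library was left out. Elovl7 turned to -0.15 with the glomerular endothelial covariate (chosen after seeing the data). Over all genes, 2 calls became 1 with upper-quartile scaling, quantile normalization, the plain variance model, the replicate block or the tubule covariate, 0 with the rank test, 11 with array weights, 8 with the podocyte and 12 with the endothelial covariate, and 1 to 6 when 1 library was left out, 6 without RAAS_blocked replicate 4 and 4 without untreated replicate 8. Whether replicate numbers pair samples is not given in the sources used here. Correlations of same-numbered deviations ran from -0.28 to 0.43 over 7 numbers, which cannot settle it. Only for number 6 was the same-numbered library the best match. In the replicate block fit 0 members passed (Scd2 -0.37, Scd1 -0.28).

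Differences of spread near 0 changed sign. Scd1 turned to 0.00978 with a pseudocount of 0.1, 0.00598 with upper-quartile scaling, 0.011 around group means and 0.13 without untreated replicates 1 and 4, where Elovl6 and Elovl7 were at 0.095 and 0.094, and Elovl1 turned to -0.00816 with upper-quartile scaling. With 1 library left out the ranges were -0.054 to 0.071 for Scd1, -0.053 to 0.052 for Elovl6, -0.15 to 0.015 for Elovl7, -0.016 to 0.029 for Elovl1, -0.048 to 0.20 for Fads2 and -0.018 to 0.14 for Fads3. The 1 gene called for spread became 0 with upper-quartile scaling, quantile normalization, the plain variance model, group means or without untreated replicates 1 and 4, and 0 to 1 when 1 library was left out.

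On the convoluted proximal tubule level the Fads2 slope was 0.26 with a pseudocount of 0.1 (limma adjusted p = 0.0734) and 0.26 with quantile normalization (0.0534), which left 0 members called, and 0 to 4 were called when 1 library was left out, 4 without RAAS_blocked replicate 6. The slopes ranged from 0.23 to 0.33 for Fads2, -0.27 to -0.081 for Scd1, 0.11 to 0.18 for Elovl6, 0.20 to 0.35 for Elovl7, -0.16 to -0.094 for Elovl5, -0.015 to 0.0029 for Elovl1 (0.013 with quantile normalization) and -0.058 to 0.0060 for Fads3. Members called ranged from 1 to 2 on the podocyte level, 3 to 5 on the loop of Henle level and 2 to 5 on the endothelial level (2 with quantile normalization, where Scd2 and Elovl7 were lost). All 5 distal slopes passed in every alternative run. The causes of these shifts were not tested. Without counts, the limits set by depth are unknown.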
